A study of Mus musculus with 15 samples.

Results

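The class II antigen presentation genes H2-Aa, H2-Ab1, H2-Eb1, H2-DMa, H2-DMb1, Cd74 and Ciita were followed through 15 mouse testis RNA libraries. These 7 genes were chosen by name, as the rows of the expression table whose Entrez gene IDs carry these symbols, out of 23510 gene IDs. The libraries came from testes of ICR mice, an outbred stock, and formed 5 groups of 3. In the MNC group the testes had received the vector control of the M receptor lentivirus. In the M1, M3 and M5 groups they had received lentivirus with short hairpin RNAs (shRNAs) against the muscarinic acetylcholine receptor of that name, 3 shRNAs for each gene, mixed. Per the study's methods, the injections were made at 5 weeks of age and testes were collected 10 days later. The group Con carries the label control and no further description, so its age and handling are not given. MNC, M1, M3 and M5, 12 libraries in all, are called the injected groups below, and the virus, the injection and anything else that sets them apart from Con cannot be told apart. The labels do not say that the libraries of a group came from separate animals, and the p-values then measure only the spread between these libraries, which may be technical.

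Class II molecules are pairs of an alpha and a beta chain that carry peptides from the endosome to the cell surface, where CD4+ T cells read them. Cd74, the invariant chain, holds the groove of a new class II molecule closed on its way to the endosome, the DM proteins exchange the last piece of the invariant chain for peptide, and Ciita is the transcriptional coactivator on which these genes depend. They are expressed mainly by macrophages, dendritic cells and B cells, and by other cells under interferon gamma. In the testis, resident macrophages lie between the seminiferous tubules, in a tissue known for its damped immune responses.

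Values are FPKM, mapped fragments corrected for gene length and library size but not for differences in library composition. Comparisons of levels between genes and between libraries are therefore approximate. How the calls against Con changed with other scalings is given in the closing section. Differences are on the scale of log2(FPKM + 1), which understates changes of genes near 0, and are given with a standard error (SE). Summed FPKM ranged from 470243 to 513817 per library, the absolute depth is unknown, and the relative depth, from steps between low values, ranged from 0.943 to 1.034. This estimate rests on 6 to 15 genes a library. Only genes whose values fitted a common step in all libraries within 0.02 FPKM were used, which draws it towards equal depth. It cannot show that depths were alike. In all, 14514 genes whose FPKM averaged 1 or more were tested with limma and called at a Benjamini-Hochberg adjusted p under 0.05. The average ran over all 15 libraries, 12 of them injected, so a gene low in Con could pass through the injected ones. Of the 7 class II genes, 5 passed this filter, and H2-Eb1 and Ciita fell below it and were compared by exact permutation tests. The targeted receptor genes were near 0 in every library, with highest values of 0.17 FPKM for Chrm1, 0.11 FPKM for Chrm3 and 0.43 FPKM for Chrm5, so the knockdowns could not be checked in these data. Germ cell markers were high in every library, at a summed level of 9986 to 26460 FPKM over 7 genes, as the label testis has it.

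Of the 7 genes, 5 lie in the class II region of chromosome 17 (mm10, GRCm38.p6). In chromosomal order these are H2-DMa at chr17:34119693-34139101, H2-DMb1 at chr17:34153191-34160229, H2-Ab1 at chr17:34263227-34269418, H2-Aa at chr17:34282744-34287823 and H2-Eb1 at chr17:34305867-34316674. Ciita lies at chr16:10480014-10531064, and Cd74 also lies outside this region. H2-DMa overlaps Brd2 in the annotation and Ciita overlaps Dexi, and since strand-specific counting is not stated, reads in the overlaps could be counted for either gene. H2-DMb1 and H2-Eb1 have the close copies H2-DMb2 and H2-Eb2, between which reads could be split.

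The promoters of class II genes are known for a paired arrangement of an X box, bound by the RFX complex, and a Y box, bound by NF-Y, on which Ciita assembles. RefSeq promoter windows (GRCm38.p6, 250 bases before to 50 after an annotated start) were used for 4 of the 7 genes. The stretches from 120 to 31 bases before the start are shown for the 3 genes whose windows hold both boxes, because they place the point at which Ciita acts beside the levels that follow. Each is written 5′ to 3′ along the gene, with the X letters (CTNGNAACT) first and the Y letters (TGATTGG) second in capitals. H2-DMb1 is chr17:34153071-34153160 on the plus strand, H2-Aa is chr17:34287854-34287943 on the minus strand and H2-Eb1 is chr17:34305747-34305836 on the plus strand.
H2-DMb1: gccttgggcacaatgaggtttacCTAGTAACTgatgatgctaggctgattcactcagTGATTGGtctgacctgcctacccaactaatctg
H2-Aa: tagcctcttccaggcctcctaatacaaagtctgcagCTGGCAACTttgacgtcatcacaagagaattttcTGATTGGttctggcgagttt
H2-Eb1: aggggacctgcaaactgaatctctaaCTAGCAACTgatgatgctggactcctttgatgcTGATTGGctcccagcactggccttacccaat

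The boxes sat at nearly the same place in all 3 genes. The X letters began 97 bases before the start of H2-DMb1, 84 before that of H2-Aa and 94 before that of H2-Eb1. Between the boxes lay 25 bases in H2-DMb1, 25 in H2-Aa and 24 in H2-Eb1. The letters searched were spelled from these same 3 windows, so the matches are no finding, and both strands of all windows were searched with them. Of 32851 mouse windows, 1347 (4.1%) held the X letters and 2568 (7.82%) the Y letters. Only 5 windows (0.0152%) held X and then Y on the same strand within 40 bases, namely those of H2-DMb1, H2-Aa, H2-Eb1, BC051142 on chromosome 17 and 1700048F04Rik on chromosome 5. Neither of the H2-DMa windows, at chr17:34122582-34122881 and chr17:34125268-34125567, held either motif in these letters. The first overlaps Brd2 and H2-DMa extends to base 34139101, so any start further along the gene was not searched.

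**Figure D1:**
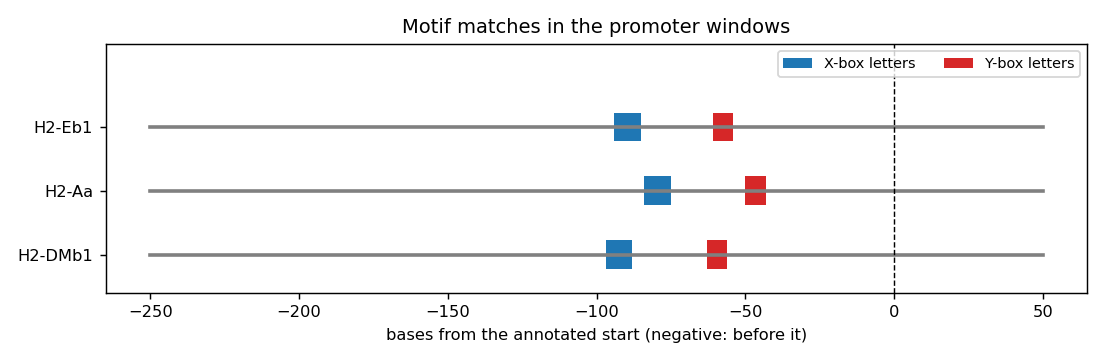
Positions of the X and Y letters in the promoter windows of H2-DMb1, H2-Aa and H2-Eb1, in bases from the annotated start on the x axis, with negative values before it. The X box (blue) starts 84 to 97 bases and the Y box (red) 50 to 63 bases before the start in these 3 genes.

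Ciita, the coactivator of the class II promoters, was near the floor of the table in Con and higher in every injected library. Its FPKM was 0.06, 0.04 and 0.02 in Con. In MNC it was 0.70, 0.32 and 0.53, and in M1 it was 0.53, 1.00 and 0.27. In M3 it was 0.24, 0.56 and 0.25, and in M5 it was 0.42, 0.73 and 1.14. The lowest injected library, at 0.24 FPKM, lay above the highest Con library, so the 2 sets did not overlap. The mean over the 12 injected libraries was 13.9 times that of Con. In an exact permutation test, two-sided and over all 455 choices of 3 of the 15 libraries, the log2 difference of 0.56 gave p = 0.006593, where the smallest p possible was 0.002198. Within the pairs of groups, 3 against 3, no p under 0.1 can be had, and MNC against Con gave 0.1 (exact permutation). Values of Ciita in Con rest on the second decimal of the table, and the ratio is accordingly coarse.

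The alpha chain gene H2-Aa and the beta chain gene H2-Ab1 encode the pair known as I-A. H2-Aa stood at 6.26, 1.56 and 2.32 FPKM in Con and at 64.16, 26.63 and 13.66 FPKM in MNC. It was 19.48, 24.28 and 13.06 FPKM in M1, 17.9, 27.63 and 13.92 FPKM in M3, and 28.45, 24.57 and 17.25 FPKM in M5. Each injected library was above the highest Con library, and MNC held both the highest of all libraries and the second lowest injected one. The injected mean was 7.17 times that of Con, and limma placed the difference at 2.54 (SE 0.39, adjusted p = 0.0006884). RNA from whole testis cannot tell more class II expressing cells apart from more RNA per cell, here and in all comparisons below.

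H2-Ab1 was also higher in every injected library. Its values were 4.62, 2.13 and 1.89 FPKM in Con, 39.24, 14.69 and 10.62 FPKM in MNC, and 14.62, 18.96 and 7.79 FPKM in M1. In M3 they were 10.39, 20.0 and 12.57 FPKM, and in M5 28.21, 29.57 and 20.3 FPKM. Con lay below the 12 injected libraries with no overlap, and M5 had the highest group mean, 26.0 ± 5.01 FPKM (SD, n = 3). The injected mean was 6.57 times that of Con, a difference of 2.29 (SE 0.35, limma, adjusted p = 0.0006158).

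H2-Eb1, the beta chain of the other class II pair, I-E, was low in all libraries. Con held 0.18, 0.18 and 0 FPKM, MNC 1.8, 0.3 and 0 FPKM, and M1 0, 1.76 and 0.1 FPKM. M3 held 0.82, 2.09 and 0.34 FPKM, and M5 1.39, 0.21 and 0.07 FPKM. In 8 of the 12 injected libraries H2-Eb1 lay above the highest Con value, the others were within the range of Con, and the gene was listed at 0 in 1 library each of Con, MNC and M1. The log2 difference between injected libraries and Con was 0.51, with p = 0.2374 in the exact permutation test.

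Cd74, the invariant chain, was the most abundant of the 7 genes in each library. It measured 15.37, 8.74 and 9.75 FPKM in Con and 174.38, 70.49 and 89.73 FPKM in MNC. The M1 libraries held 82.15, 165.5 and 55.1 FPKM, the M3 libraries 45.17, 86.97 and 54.17 FPKM and the M5 libraries 94.7, 125.23 and 171.49 FPKM. The lowest injected library was M3 replicate 1, well above the highest Con library, and the groups did not overlap. The injected mean was 8.97 times that of Con, a limma difference of 2.96 (SE 0.33, adjusted p = 0.0001412).

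H2-DMa and H2-DMb1 encode the alpha and beta chain of the DM exchange factor, and neither was called. H2-DMa measured 4.67, 4.54 and 4.59 FPKM in Con, with an SD of 0.0656 (n = 3). In MNC it was 6.37, 6.72 and 4.61 FPKM, in M1 7.05, 1.04 and 4.81 FPKM, in M3 4.09, 1.87 and 4.65 FPKM, and in M5 2.93, 5.97 and 5.69 FPKM. The injected libraries lay on both sides of Con, 6 of 12 above its highest value, and M1 replicate 2 and M3 replicate 2 were the lowest of all. The injected mean was 1.01 times that of Con, and the difference was -0.09 (SE 0.33, limma, adjusted p = 0.8545).

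H2-DMb1 varied widely between the libraries of a group. Con held 2.62, 0.21 and 0.25 FPKM, MNC 6.68, 1.48 and 0.64 FPKM and M1 1.73, 5.34 and 1.43 FPKM. M3 held 2.09, 7.23 and 2.01 FPKM, and M5 4.73, 2.21 and 1.21 FPKM. Con replicate 1 lay above 8 of the 12 injected libraries, so the groups overlapped. The injected mean was 2.99 times that of Con, a difference of 1.01 (SE 0.51) that did not pass limma (adjusted p = 0.1361).

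**Figure D2:**
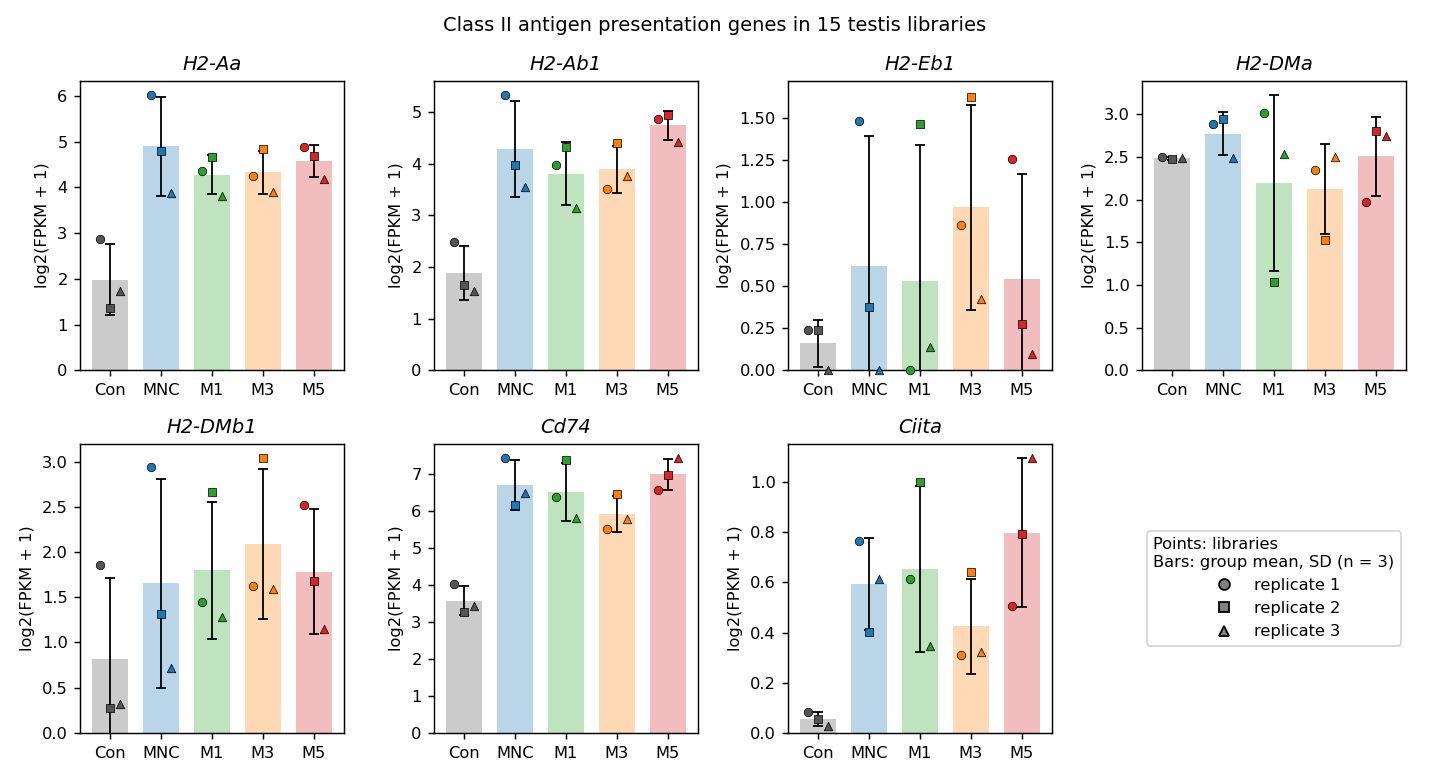
Levels of the 7 class II genes in each of the 15 libraries, as log2(FPKM + 1) on the y axis, by group. Points are libraries, bars are group means and whiskers are the SD (n = 3), cut at 0. H2-Aa, H2-Ab1, Cd74 and Ciita are lower in the 3 Con libraries than in each of the 12 injected libraries, while H2-Eb1, H2-DMa and H2-DMb1 overlap.

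In the contrast of the injected groups with Con, 3 of the 5 class II genes tested were called, all higher in the injected groups, where 34.2% of all genes tested were called, 11.8% higher and 22.4% lower. The median difference of the 5 genes was 2.29, against -0.10 over all genes tested. In 3 of the 5 genes tested (H2-Aa, H2-Ab1 and Cd74) the groups did not overlap and the injected libraries were higher, which held for 6.25% of the genes tested. Ciita, below the filter, did not overlap either, and no such share was taken over genes below the filter. Leaving out any 1 of the 15 libraries kept H2-Aa, H2-Ab1 and Cd74 called.

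The vector control on its own showed the same members higher. MNC exceeded Con in H2-Aa by 2.91 (SE 0.62, limma, adjusted p = 0.02964), in H2-Ab1 by 2.39 (SE 0.50, adjusted p = 0.02849) and in Cd74 by 3.12 (SE 0.36, adjusted p = 0.01578). H2-DMa (0.29, adjusted p = 0.1473) and H2-DMb1 (0.84, adjusted p = 0.3804) did not pass. These 3 calls of 5 compare with 20.4% of all genes tested called, 8.03% as higher in MNC. Again H2-Aa, H2-Ab1 and Cd74 did not overlap with MNC higher, which 15% of the genes tested showed. Ciita did not overlap either but lies below the filter, outside the genes of that share. With 1 library left out the differences stayed at 2.35 to 3.42 for H2-Aa, 1.87 to 2.76 for H2-Ab1 and 2.75 to 3.40 for Cd74, while calls were lost. Without Con replicate 1 none of the 5 was called (Cd74 adjusted p = 0.08307), in a run where calls over all genes fell from 2967 to 8, and without Con replicate 2, Con replicate 3 or MNC replicate 2 only Cd74 was.

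Each knockdown group also exceeded Con in the same 3 genes when compared with it alone. Of all genes tested, 34.2% were called in M1 against Con (10.3% higher), 22.1% in M3 (7.01% higher) and 21.7% in M5 (9.32% higher). These comparisons share the Con libraries with one another and with MNC against Con. Cd74 was higher by 2.94 in M1 (limma, adjusted p = 0.009296), by 2.34 in M3 (adjusted p = 0.02384) and by 3.42 in M5 (adjusted p = 0.001589). For H2-Aa the differences were 2.29 in M1, 2.34 in M3 and 2.60 in M5, with adjusted p from 0.008307 to 0.02793. For H2-Ab1 they were 1.92 in M1, 2.00 in M3 and 2.85 in M5, with adjusted p from 0.003239 to 0.0258.

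The study's main question was what knockdown of a receptor changed relative to the vector control. No class II gene was called in M1, M3 or M5 against MNC, comparisons that share the MNC libraries. In M1 the differences from MNC were -0.62 (SE 0.54) for H2-Aa, -0.47 (SE 0.51) for H2-Ab1, -0.18 (SE 0.48) for Cd74, -0.58 (SE 0.50) for H2-DMa and 0.14 (SE 0.64) for H2-DMb1, with limma adjusted p from 0.8632 to 0.9776. Of all genes tested limma called 0% in this comparison, and 862 (5.94%) had an unadjusted p under 0.05. In M3 they were -0.57 (SE 0.54), -0.39 (SE 0.48), -0.78 (SE 0.38), -0.65 (SE 0.28) and 0.43 (SE 0.65) in the same order, with limma adjusted p from 0.5178 to 0.8018, where 0.00689% of all genes were called.

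In M5, where 5.65% of all genes tested were called against MNC, 0 of the 5 class II genes were, and 0 of them had an unadjusted p under 0.05, which 24.9% of all genes had. The limma differences were -0.31 (SE 0.51) for H2-Aa, 0.46 (SE 0.44) for H2-Ab1, 0.29 (SE 0.36) for Cd74, -0.27 (SE 0.25) for H2-DMa and 0.13 (SE 0.61) for H2-DMb1, with adjusted p from 0.5582 to 0.9242. Ciita differed from MNC by 0.06 in M1, by -0.17 in M3 and by 0.20 in M5, and H2-Eb1 by -0.09, 0.35 and -0.08, with exact permutation p from 0.3 to 1 where 0.1 is the smallest possible. These SEs, with 3 libraries a group, set how small a difference could have been detected.

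Between the knockdown groups, M5 was the highest for H2-Ab1 and Cd74. H2-Ab1 in M5 did not overlap with M1 or M3, at 20.3 FPKM or more against at most 18.96 FPKM in M1 and 20.0 FPKM in M3. The difference was 0.93 from M1 (SE 0.31, unadjusted p = 0.02004, limma adjusted p = 0.1195) and 0.85 from M3 (SE 0.25, unadjusted p = 0.01094, adjusted p = 0.3381), so neither was called. Cd74 in M5 lay above M3 without overlap, by 1.07 (SE 0.29, unadjusted p = 0.007893, limma adjusted p = 0.3381), and overlapped with M1. Among all genes tested, M5 lay above M1 without overlap in 18.8% and above M3 in 14.4%, and in these comparisons 6.75% and 0.0138% were called. For M1 against M3 no class II gene had an unadjusted p under 0.05 and limma called 0% of all genes (672, or 4.63%, with an unadjusted p under 0.05).

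**Figure D3:**
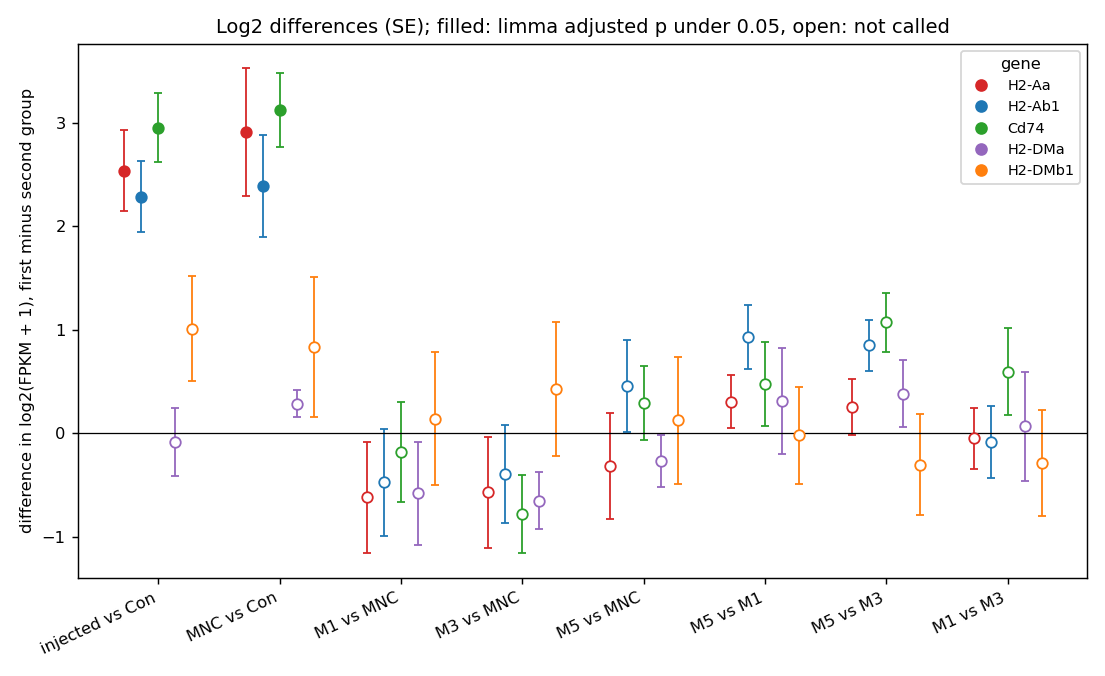
Differences in log2(FPKM + 1), first minus second group, for the 5 class II genes tested in 8 comparisons, with whiskers of 1 SE and filled points where the limma adjusted p was under 0.05. Filled points appear only for H2-Aa, H2-Ab1 and Cd74 in the comparisons with Con, at 2.29 to 3.12.

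The order of the groups differed from gene to gene. Con had the lowest mean for 6 of the 7 genes, and for H2-DMa it stood between M5 and M1. The highest mean was that of MNC for H2-Aa and H2-DMa, of M3 for H2-Eb1 and H2-DMb1, and of M5 for H2-Ab1, Cd74 and Ciita. No pair of neighbouring injected groups in these orders was called by limma, and for H2-Eb1 and Ciita the exact permutation p of such pairs was 0.3 or more. Between the highest and the lowest of the 12 injected libraries, whatever their group, lay a factor of 3.86 for Cd74, 4.75 for Ciita, 4.91 for H2-Aa, 5.04 for H2-Ab1, 6.78 for H2-DMa and 11.3 for H2-DMb1, and H2-Eb1 ran from 0 to 2.09 FPKM.

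The ratio of the I-A chains was lower in M5 than in the other injected groups. H2-Aa to H2-Ab1 was 0.831 to 1.01 in M5, 1.29 to 1.81 in MNC, 1.28 to 1.68 in M1 and 1.11 to 1.72 in M3. The 3 M5 libraries were thus below the other 9 injected libraries, while Con, at 0.732 to 1.35, overlapped with both. This ratio was singled out after its values were seen and was not tested. Cd74 stood at 2.46 to 9.94 times H2-Aa and at 3.33 to 8.73 times H2-Ab1 over the 15 libraries, with all groups overlapping Con for H2-Aa.

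The libraries within a group did not move as one along the class II region, as the heat map of the region by library shows. MNC replicate 1, M1 replicate 2 and M3 replicate 2 held the highest 3 values of the 15 libraries for H2-Eb1, H2-DMb1 and H2-Ea, the alpha chain of I-E, and for Tap1 and Psmb9, class I processing genes that lie between H2-DMb1 and H2-Ab1. H2-Ea measured 32.27, 34.53 and 35.28 FPKM in these 3 libraries and 0.1 to 8.42 FPKM in the other 12. H2-DMa went the other way in M1 replicate 2 (1.04 FPKM) and M3 replicate 2 (1.87 FPKM), ranks 15 and 14 of 15, but not in MNC replicate 1 (6.37 FPKM, rank 3). Psmb8 and Tap2, in the same stretch of the chromosome, did not share this pattern: M1 replicate 2 was at rank 10 for Psmb8 and at rank 13 for Tap2.

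H2-Ea was also low in every M5 library, at 0.33, 0.99 and 0.42 FPKM, against 2.56 FPKM or more in each M1 and M3 library. Con, at 2.32, 0.74 and 0.1 FPKM, overlapped with M5, and MNC replicate 3 held 1.07 FPKM. The difference of H2-Ea in M5 was -2.75 from M1 (SE 0.72, limma, adjusted p = 0.07276), -2.78 from M3 (SE 0.76, adjusted p = 0.3381) and -2.21 from MNC (SE 0.93, adjusted p = 0.2041), and it was called in none of them. The mice were of an outbred stock and class II genes differ between haplotypes of the mouse, while reads were mapped to 1 reference, so reads of unlike alleles could be lost from the values of any of these genes. The part of this in the differences between libraries was not tested.

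**Figure D4:**
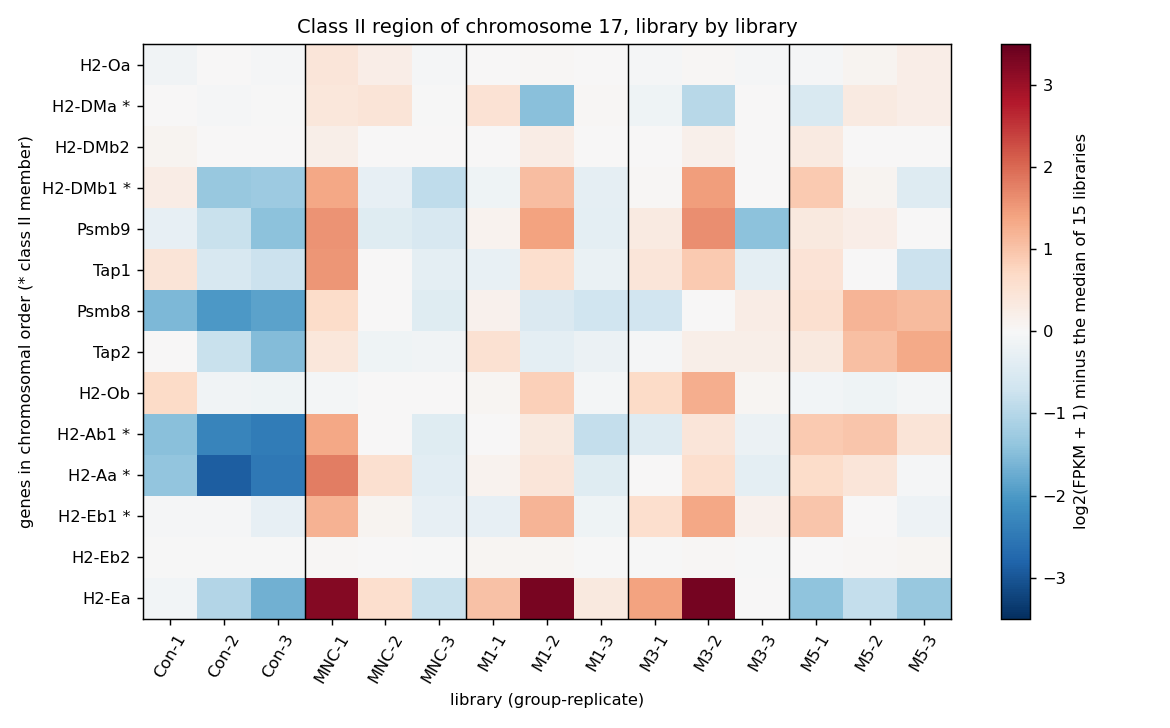
Log2(FPKM + 1) of 14 genes of the class II region of chromosome 17 in each library, minus the gene's median over the 15 libraries, with genes in chromosomal order and class II members starred. MNC replicate 1, M1 replicate 2 and M3 replicate 2 stand out in H2-Ea, H2-Eb1 and H2-DMb1, and Con is low in H2-Aa and H2-Ab1.

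Across the 12 injected libraries several of the genes rose and fell together. In all 56 relations were computed, with 100000 permutations each and Benjamini-Hochberg adjustment over the 56, on log2(FPKM + 1). Cd74 and Ciita gave r = 0.933 (permutation p = 3e-05, adjusted 0.00042) and rho = 0.904 (permutation p = 0.00017, adjusted 0.00238). Without the 2 libraries farthest from the median of Ciita r was 0.922, and within groups, on deviations from the group means, it was 0.938. H2-Eb1 and H2-DMb1 gave r = 0.949 (permutation p = 2e-05, adjusted 0.00042) and rho = 0.897 (permutation p = 0.00015, adjusted 0.00238), with r = 0.91 without the 2 farthest libraries and 0.959 within groups.

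H2-Aa and H2-Ab1, the chains of 1 molecule, gave r = 0.837 (permutation p = 0.00038, adjusted 0.00355) and rho = 0.79 (permutation p = 0.00357, adjusted 0.0167), with r = 0.7 without the 2 farthest libraries and 0.938 within groups. Other relations passed too. H2-Aa and H2-DMb1 gave r = 0.75 (permutation p = 0.00276, adjusted 0.0129), with 0.919 within groups. H2-Ab1 and Cd74 gave r = 0.758 (permutation p = 0.00504, adjusted 0.0202), with 0.74 within groups. H2-Aa and H2-Eb1 gave r = 0.685 (permutation p = 0.0089, adjusted 0.0332) and rho = 0.68 (permutation p = 0.0178, adjusted 0.0551). For H2-Aa and Ciita r was 0.296 (permutation p = 0.356, adjusted 0.538) and rho 0.301 (permutation p = 0.339, adjusted 0.558), with r = 0.592 without the 2 farthest libraries and 0.318 within groups. For H2-Ab1 and Ciita r was 0.565 (permutation p = 0.0573, adjusted 0.128) and rho 0.694 (permutation p = 0.0153, adjusted 0.0504), with r = 0.738 without the 2 farthest libraries and 0.496 within groups. These relations were not tested against that of Cd74 with Ciita. For H2-DMa and H2-DMb1, the chains of DM, r was -0.581 (permutation p = 0.0449, adjusted 0.109) and rho -0.378 (permutation p = 0.228, adjusted 0.426), with r = -0.755 without the 2 farthest libraries and -0.574 within groups, so these did not pass. H2-Eb1 and H2-DMa gave r = -0.681 (permutation p = 0.0112, adjusted 0.0369) and rho = -0.515 (permutation p = 0.0887, adjusted 0.207), so only r passed.

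Cd74 was also closely related to Ptprc (CD45), the common surface protein of white blood cells, with r = 0.932 (permutation p = 3e-05, adjusted 0.00042) and rho = 0.881 (permutation p = 0.00028, adjusted 0.00314), r = 0.888 without the 2 farthest libraries and 0.939 within groups. For Csf1r, the receptor for macrophage growth factor, r was 0.882 (permutation p = 3e-05, adjusted 0.00042) and rho 0.958 (permutation p = 1e-05, the smallest the permutations can give, adjusted 0.00056), with r = 0.87 without the 2 farthest libraries and 0.853 within groups. For Cd74 and Cd3g, of the T cell receptor complex, r was 0.829 (adjusted permutation p = 0.0098). Ciita gave r = 0.897 with Ptprc, 0.801 with Csf1r and 0.712 with Cd3g (adjusted permutation p at most 0.0368). H2-Ab1 gave 0.792, 0.686 and 0.816 in the same order (at most 0.0408). H2-Aa gave 0.536, 0.474 and 0.605, and none passed (adjusted permutation p at least 0.0725). H2-Eb1 passed with none of them either. H2-DMb1 and Ptprc gave r = 0.403 (permutation p = 0.191, adjusted 0.315) and rho = 0.315 (permutation p = 0.318, adjusted 0.556), with r = 0.56 without the 2 farthest libraries and 0.658 within groups. H2-DMa and Ptprc gave r = -0.19 (permutation p = 0.559, adjusted 0.711) and rho = 0.042 (permutation p = 0.903, adjusted 0.969), with r = 0.132 without the 2 farthest libraries and -0.476 within groups.

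**Figure D5:**
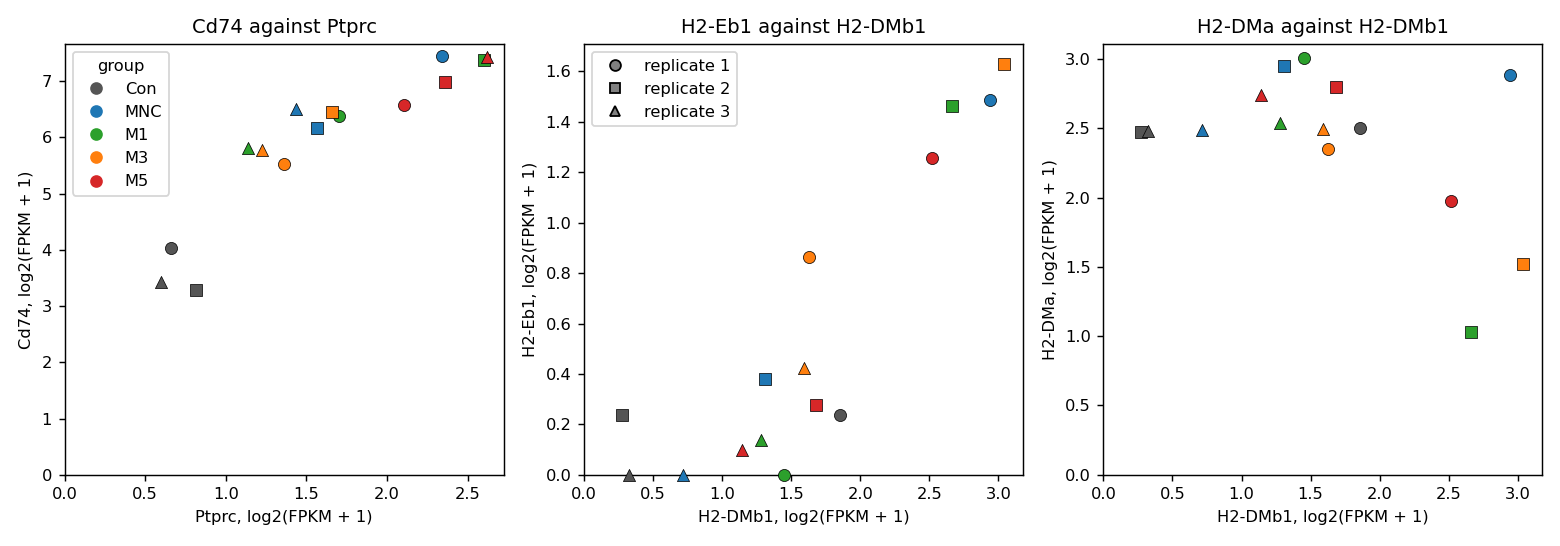
Cd74 against Ptprc, H2-Eb1 against H2-DMb1 and H2-DMa against H2-DMb1 in the 15 libraries, all as log2(FPKM + 1), with color for the group and shape for the replicate. In the first panel the 3 Con libraries lie apart at the lower left, and over the 12 injected libraries r was 0.932, 0.949 and -0.581 in the 3 panels.

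Relative to Ptprc and to Csf1r Cd74 was still higher in the injected libraries. Cd74 stood at 11.5 to 26.5 times Ptprc in Con and at 28.7 to 52.8 times Ptprc in the 12 injected libraries, without overlap. Against Csf1r the ratio was 1.49 to 3.02 in Con and 14.8 to 28.0 in the injected libraries. Against Ptprc this did not hold for the I-A chains. H2-Aa to Ptprc was 2.05 to 10.8 in Con and 3.34 to 15.8 in the injected libraries, and H2-Ab1 to Ptprc was 2.8 to 7.97 and 3.75 to 9.67. Ratios of the I-A chains to Csf1r were not taken. None of these ratios was tested. Ratios to other cell markers were not taken, such as Cd3g, at 0 to 0.04 FPKM in Con and 0.64 to 3.68 FPKM in the injected libraries.

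Of 7 genes for factors that bind the X and Y boxes (RFX subunits, NF-Y subunits and Creb1), 0 were called higher and 5 lower in the injected groups against Con, where 22.4% of all genes tested were called lower, with a list median of -0.22 against -0.10 over all genes. Rfxap fell by 0.32 (SE 0.07, limma, adjusted p = 0.005312), Rfxank fell by 0.29 (adjusted p = 0.006731) and Rfx5 fell by 0.26 (adjusted p = 0.008216). With the libraries centred on their medians 2 of the 7 were called lower, Rfx5 at -0.15 (adjusted p = 0.04777) and Rfxap at -0.21 (adjusted p = 0.04786). With centring 3269 of the 14514 genes tested were called, 70.4% of them higher. In MNC against Con only Rfxap was called, at -0.39 (adjusted p = 0.02541), and with centring none was (Rfxap adjusted p = 0.06594). Of all genes tested, 12.4% were called lower there. With centring 1869 were called, 77.5% of them higher.

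Class I presentation genes, which display peptides from the cytosol, were called higher in 6 of 10 cases and lower in 0 in the injected groups against Con, also with median centring, with a list median of 1.01. Of all genes tested, 11.8% were called higher in this contrast, and with centring 3269 were called, 70.4% of them higher. Psmb8, a subunit of the immunoproteasome, rose by 1.95 (SE 0.25, limma, adjusted p = 0.0002414), H2-D1, a class I heavy chain, by 1.86 (SE 0.22, adjusted p = 0.0002102) and B2m, the class I light chain, by 1.84 (SE 0.29, adjusted p = 0.0007249). Nlrc5, the class I counterpart of Ciita, rose by 0.82 (SE 0.20, adjusted p = 0.007337). Psmb8 was at most 0.97 FPKM in Con, so it passed the filter only through the injected libraries. In MNC against Con 5 of 10 were called, all higher, where 8.03% of all genes tested were called higher. H2-D1 was also called in M5 against MNC, higher by 1.55 (SE 0.18, limma, adjusted p = 0.01531), and Psmb8 in M5 against M1, higher by 1.30 (SE 0.26, adjusted p = 0.03992). Whether class I and class II genes differed in this respect was not tested.

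Of 10 genes for protein breakdown in the endosome, 1 was called in the injected groups, Ctss, the protease that trims the invariant chain, which rose by 1.23 (SE 0.32, limma, adjusted p = 0.01131). This share is close to the 11.8% of all genes tested that were called higher, and the list median was 0.04. With median centring 2 of the 10 were called higher, where 3269 of all genes tested were called, 70.4% of them higher. Ctss was 7.77, 7.95 and 7.90 FPKM in Con and 9.19 to 56.1 FPKM in the injected libraries, without overlap.

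Of 8 interferon gamma signalling genes tested in the injected groups against Con, 2 were called higher and 0 lower, with a list median of -0.03. The share of all genes tested that were called higher there was 11.8%. Irf1, a transcription factor induced by interferon gamma and an activator of Ciita, rose by 1.27 (SE 0.34, limma, adjusted p = 0.01342). The receptor chains Ifngr1 and Ifngr2 were not called. Ifng itself, below the filter and named after its values were seen, was listed at 0 in each Con library and at 0.07 to 0.38 FPKM in the 12 injected libraries. Costimulation genes were called in 0 of 3 tested cases, and in MNC against Con Cd274 was called, by 0.36 (SE 0.09, limma, adjusted p = 0.04358). Other class II chains and modulators were called in 0 of 2 cases, with H2-Ea at 1.68 (SE 0.82, adjusted p = 0.126).

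Of 5 pan-leukocyte markers, 2 were called higher in the injected groups against Con, Ptprc by 1.15 (SE 0.25, limma, adjusted p = 0.004461) and Coro1a by 1.45 (SE 0.33, adjusted p = 0.005534), and with median centring 4 were. Their summed level was 11.9 to 31.5 FPKM in Con, 21.4 to 54.2 in MNC, 18.4 to 64.4 in M1, 21.3 to 34.8 in M3 and 43.4 to 64.1 in M5. Beside the counts of this list and of the monocyte and T cell lists stand 11.8% of all genes tested called higher. With centring 3269 of all genes tested were called, 70.4% of them higher. Of 5 monocyte markers tested, Ccr2 (1.42, adjusted p = 0.005162) and Ly6c2 (1.40, adjusted p = 0.02547) were called higher, with a sum of 13.3 to 15.6 FPKM in Con and 14.3 to 52.6 in the injected libraries. Of 3 T cell markers tested, Cd3g (1.44, limma, adjusted p = 0.002346) and Cd2 (0.89, adjusted p = 0.01807) were called higher, with a sum of 8.01 to 8.45 FPKM in Con and 9.88 to 21.1 in the injected libraries. Most of the Con sum was Cd3d, at 6.82 to 7.88 FPKM in Con and 5.83 to 9.54 FPKM in the injected libraries. Ptprc, Ccr2, Ly6c2, Cd3g and Cd2 held at most 0.76, 0.57, 0.57, 0.04 and 0.68 FPKM in Con. They passed the filter only through the injected libraries, where they were higher. The counts called higher in these lists were therefore partly set by the filter. Below the filter and untested, Cd3e (0.14 to 0.17 FPKM in Con, 0.22 to 1.51 FPKM injected), Cd4 (0.23 to 0.35, 0.53 to 1.27) and Cd8a (0.04 to 0.05, 0.17 to 1.99) did not overlap. Lck (0 to 0.06, 0 to 0.11) did. Of the genes tested, 6.25% lay higher in the injected libraries without overlap, a share that holds no genes below the filter.

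Of 11 macrophage markers tested, 2 were called higher, Fcgr3 (0.81, limma, adjusted p = 0.006266) and C1qb (0.80, adjusted p = 0.01473), where 11.8% of all genes tested were called higher. The summed level of the list was 94.7 to 122.5 FPKM in Con, 130 to 212 in MNC, 104 to 192 in M1, 90.7 to 128.2 in M3 and 165 to 390 in M5. The sums of MNC and M5 lay above those of Con, and those of M1 and M3 overlapped with them. C1qb was at most 12.09 FPKM in Con and at least 12.8 FPKM in the injected libraries. Csf1r was 4.17 to 5.86 FPKM in Con and 3.02 to 11.59 FPKM in the injected libraries. Dendritic cell markers summed to 7.29 to 7.46 FPKM in Con and 6.29 to 8.98 in the injected libraries with 0 of 2 called. Most of this sum was Zbtb46, at 3.82 to 4.84 FPKM. Flt3, the other gene tested, was 1.13 to 1.55 FPKM in Con and 0.79 to 1.21 FPKM in the injected libraries. The rest lay below the filter and were not tested. Itgax (0.37 to 0.81 FPKM in Con, 0.26 to 1.2 FPKM injected), Batf3 (0.37 to 0.55, 0.26 to 1.06) and Ccr7 (0.39 to 0.6, 0.4 to 2.41) overlapped. Clec9a was 0.01 to 0.03 FPKM in Con and 0.04 to 0.21 FPKM in the injected libraries, and Xcr1 was 0.08 to 0.11 FPKM and 0.14 to 0.28 FPKM. Neither overlapped. Of the genes tested 6.25% lay higher in the injected libraries without overlap, but no such share was taken over genes below the filter. Cd209a was listed at 0 in Con and at 0 to 0.11 FPKM in the injected libraries. B cell markers summed to 6.64 to 7.38 FPKM in Con and 6.28 to 9.29 in the injected libraries with 0 of 1 called, and Cd79a, Cd79b and Ms4a1 were at most 0.45 FPKM. Most of the B cell sum was Pax5, the gene tested, at 5.31 to 7.53 FPKM. The part of these cell types in the class II differences was not tested.

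The composition of the libraries differed between Con and the injected groups in other ways too. Epididymal markers summed to 9.15 to 32.6 FPKM in Con, to at most 0.59 FPKM in MNC, M1 and M5, and to 0.83 to 20.2 FPKM in M3. Crisp1, the 1 of them that passed the filter, was 32.26, 2.86 and 12.15 FPKM in Con and 0.03 FPKM in each MNC library, and it was called lower in the injected groups (-2.87, limma, adjusted p = 0.004162). Of 7 germ cell markers, 4 were called higher and 1 lower, where 11.8% of all genes tested were called higher and 22.4% lower. Red blood cell markers summed to 147.6 to 490.8 FPKM in M5 and to at most 98.9 FPKM in each other library. Of 7 Sertoli cell markers only Amh was called, lower (-0.60, adjusted p = 0.02063), of 3 endothelial markers 0 were, and of 5 Leydig cell markers 0 were. The part of these in the class II differences was not tested.

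Over all 15 libraries, the genes most like the class II genes were found from the mean log2(FPKM + 1) of the members other than Ciita. This is a description over libraries that include Con, which is low in the members, and over 14514 genes. An unnamed gene with the ID BGI_novel_G000166 was closest (r = 0.954). It was followed by Nkg7 (0.925), a granule protein of cytotoxic lymphocytes, B2m (0.923), Pde9a (0.911), Iqgap1 (0.907), Ccl8 (0.905), a chemokine for monocytes, Id2 (0.891), Cd3g (0.886), a chain of the T cell receptor complex, and Osbpl9 (0.883).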

How the data were processed

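RNA of 15 testis libraries was sequenced, and per the study's methods poly(A) RNA was read on a HiSeq instrument, with SOAPaligner used for mapping. A single table of FPKM, to 2 decimals, is what the authors deposited. The methods name RPKM, the columns FPKM, and the submitters' processing notes name mm10. The annotation is not given in the sources used here. Groups came from the titles. M5 replicate 2 has a description that points to another replicate's column, and its title was used, and the extraction text speaks of sperm where the titles say testis. Of 23510 IDs, 21143 (89.9%) matched a RefSeq table of GRCm38.p6. No library pair was identical.

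Values were analysed as log2(FPKM + 1) with limma 3.58.1 in R 4.3.3 (eBayes with trend, two-sided, no covariate), since the study's count test needs reads. Pairs of groups were fitted alone, and the contrast of the injected groups with Con held all 5 groups. Adjustment ran over the 14514 genes that averaged at least 1 FPKM. The fits were tested on simulated data. Motifs were searched on both strands of RefSeq promoter windows. From each gene list at most 4 called genes per comparison were named, lowest adjusted p first, and where none was called up to 2 with the lowest p. In addition, the 10 genes most like the members were to be named. Of the genes these rules chose, 2 are not reported here, and the counts over a list include its member among them. The members and lists were chosen with earlier results of these data known. Alternatives were another pseudocount, other filters, median centring, quantile normalization, no trend, 1 fit of all groups, a replicate block, Con as the control and each library left out.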

Additional observations from a re-analysis of the deposited data

How the results depend on the processing

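Against Con, the 3 class II genes called in the injected groups (H2-Aa, H2-Ab1 and Cd74) stayed the number called, or became 4, in each alternative and with each library left out. The 3 called in MNC against Con became 1 with the replicate block and 0 to 4 with 1 library left out. H2-Aa and H2-Ab1 were lost there with no filter (limma adjusted p = 0.06257 and 0.06042) and with the block (0.05873 for both), and in 4 of 6 runs with a library left out, though the differences were the same in the first 2 settings (2.91 and 2.39) and stayed at 2.35 to 3.42 and 1.87 to 2.76 in these runs. Cd74 was lost in 1 such run. Over all genes, MNC against Con gave 2967 calls, 39.3% of them higher, but 1869 calls, 77.5% higher, with median centring, 10 with the block, 1740 with no filter, 8, 195 and 1343 without Con replicates 1, 2 and 3, and 638 and 1032 without MNC replicates 2 and 3. For the injected groups the 34.6% higher became 70.4% with centring, of 3269 instead of 4962 calls, which were 2924 and 2752 without Con replicates 1 and 2. In M5 against MNC the 820 calls became 182 with centring, 215 without the trend, 2424 with all groups in one fit, 447 with no filter and 14 with the block, and in M5 against M1 the 980 became 252, 384, 1380, 630 and 39. With 1 library left out these counts ran from 35 to 946 and from 56 to 1690. No class II gene was called in either comparison under these settings. M1 and M3 against MNC, M5 against M3 and M1 against M3 gave 0 to 6 calls over all genes with all libraries kept, and at most 188 (M5 against M3, without M3 replicate 3) with 1 left out.

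With Con as the control in place of MNC, the class II calls of M1, M3 and M5 went from 0 to 3 each, and these signs turned: H2-Aa 2.29, H2-Ab1 1.92 and Cd74 2.94 in M1, H2-Aa 2.34, H2-Ab1 2.00 and Cd74 2.34 in M3, and H2-Aa 2.60 and H2-DMa 0.021 in M5. H2-Eb1 in M5 against MNC turned to 0.016 with a pseudocount of 0.1, and H2-DMa in the injected groups against Con to 0.018 with centring. Ciita was called in MNC against Con by limma with a filter of 0.1 (adjusted p = 0.03204) and with none (0.04127).

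Leaving out 1 library turned signs of uncalled differences. In M1 against MNC the ranges were -0.84 to 0.052 for H2-Ab1, -0.55 to 0.34 for H2-Eb1, -0.99 to 0.0010 for H2-DMa, -0.33 to 0.79 for H2-DMb1, -0.61 to 0.19 for Cd74 and -0.11 to 0.21 for Ciita. In M3 against MNC they were -0.76 to 0.13 for H2-Ab1 and -0.046 to 1.07 for H2-DMb1, and in M5 against MNC -0.82 to 0.25 for H2-Aa, -0.44 to 0.35 for H2-Eb1 and -0.34 to 0.77 for H2-DMb1. In M5 against M1 they were -0.35 to 0.47 for H2-Eb1, -0.27 to 0.72 for H2-DMa, -0.38 to 0.42 for H2-DMb1 and -0.0087 to 0.32 for Ciita, and in M5 against M3 -0.67 to 0.17 for H2-DMb1. In M1 against M3 they were -0.26 to 0.21 for H2-Aa, -0.34 to 0.25 for H2-Ab1, -0.34 to 0.65 for H2-DMa and -0.72 to 0.19 for H2-DMb1, and in the injected groups against Con -0.19 to 0.058 for H2-DMa. The causes were not tested.

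Replicate numbers were not taken to pair libraries, since deviations of same-numbered libraries correlated at -0.399 to 0.181. Con, with no handling described, and 3 libraries a group limit all of the above, and depth is unknown.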
